A study of Oryza sativa with 2 samples.

Results

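SUS1, SUS2, SUS3 and SUS4, rice genes for sucrose synthase, were read in endosperm of the japonica cultivar Zhonghua11 at 2 days after pollination, hand-selected before cellularization. They were the genes with symbol or synonym SUS1 to SUS4 in the rice gene table, joined by gene ID to every probe set listed for 1 gene alone. All 4 genes were found, with 5 probe sets, among 17905 genes with such a probe set and 57194 rice probe sets. The series held 1 group of 2 samples on 1 Affymetrix rice array apiece, from plants with no treatment in the labels, kept at 28 °C for 12 h of light and 22 °C for 12 h of dark. Separate plants are not stated for the samples, and the spread between arrays may be technical. No other tissue, stage or genotype was analysed here, and the values are therefore levels with no contrast between conditions and no test.

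Sucrose synthase splits sucrose with UDP into UDP-glucose and fructose, in a reaction that can run both ways and keeps the energy of the glycosidic bond in UDP-glucose. Plants use it beside the invertases, which hydrolyse sucrose into glucose and fructose. In cereal endosperm sucrose arrives from the mother plant, and the UDP-glucose released feeds starch and cell wall synthesis. In rice, SUS3 and SUS4 are known mainly from the developing grain, SUS1 mainly from elongating stems, and SUS2 from many organs. Older names cross over: per the gene table, RSs2 is a synonym of SUS1 (LOC4333062) and RSS1 of SUS2 (LOC4340386), while RSs3 is SUS3 (LOC4343910). SUS4 is LOC4332788.

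All 4 sucrose synthase genes were above background on both arrays, as were 74.1% of all genes read. The background level was 52.7 for array 1 and 37.9 for array 2, the 95th percentile of 64 probe sets for reporter genes or transgenes. All 5 of the sucrose synthase probe sets passed it, against 42.8% of rice probe sets. Averaged over the arrays, the log2 signals had a median of 12.99 for the 4 genes, against 8.58 for all genes. Of the 4 genes, SUS1, SUS2 and SUS3 were among the 10% of genes with the highest mean signal, and SUS4 was not. SUS1 was so in the probe set read and not in its other one.

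SUS3, a sucrose synthase of the developing grain, had signals of 25598.6 on array 1 and 25340.9 on array 2 in its single probe set. The arrays gave nearly the same value, with a mean log2 signal of 14.64 ± 0.01 (SD, n = 2) and a coefficient of variation of 0.715%. Only 16 genes on array 1 and 35 on array 2 had a higher signal. The highest rice probe sets read 34007.3 on array 1 and 40177.1 on array 2, so SUS3 lay close to the top of the measured range, and whether its signal was compressed there was not tested.

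SUS2, known from many rice organs, had signals of 9560.5 on array 1 and 8494.5 on array 2 in its single probe set. Array 1 was the higher, and the mean log2 signal was 13.14 ± 0.12 (SD, n = 2). The ending _a_at of its identifier marks a probe set whose probes are shared by several transcripts of 1 gene, and the gene table lists 4 RefSeq transcripts for SUS2, so its signal cannot be assigned to any of them. On array 1 96.07% of genes had a lower signal than SUS2, and on array 2 95.01% did.

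SUS1, known from elongating stems, was the one member with a pair of probe sets. The probe set read, whose ending is _at, had signals of 8173.1 on array 1 and 6613.7 on array 2, with a mean log2 signal of 12.84 ± 0.22 (SD, n = 2). The other, whose ending is _x_at, had signals of 5035.4 on array 1 and 4228.5 on array 2, with a mean log2 signal of 12.17 ± 0.18 (SD, n = 2). Both probe sets were higher on array 1, and the first was above the second by 1.62-fold on array 1 and 1.56-fold on array 2. Probes of an _x_at set may also match other sequences. The place of SUS1 among all genes depended on the choice. In the probe set read, 899 genes on array 1 and 1221 on array 2 had a higher signal, against 1695 and 2092 in the other. With the other probe set SUS1, at a mean log2 signal of 12.17, fell below the limit of the brightest 10% of genes, 12.24. The mean over both probe sets gave SUS1 a log2 signal of 12.51.

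SUS4, the other member known from the grain, had signals of 2632.3 on array 1 and 2590.3 on array 2 in its single probe set. The arrays differed by less than for SUS1 or SUS2, and the mean log2 signal was 11.35 ± 0.02 (SD, n = 2). SUS4 was the dimmest of the 4 and still lay 49.9 times above background on array 1 and 68.3 times on array 2. On array 1 81.88% of genes had a lower signal, and on array 2 81.52% did.

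**Figure D1:**
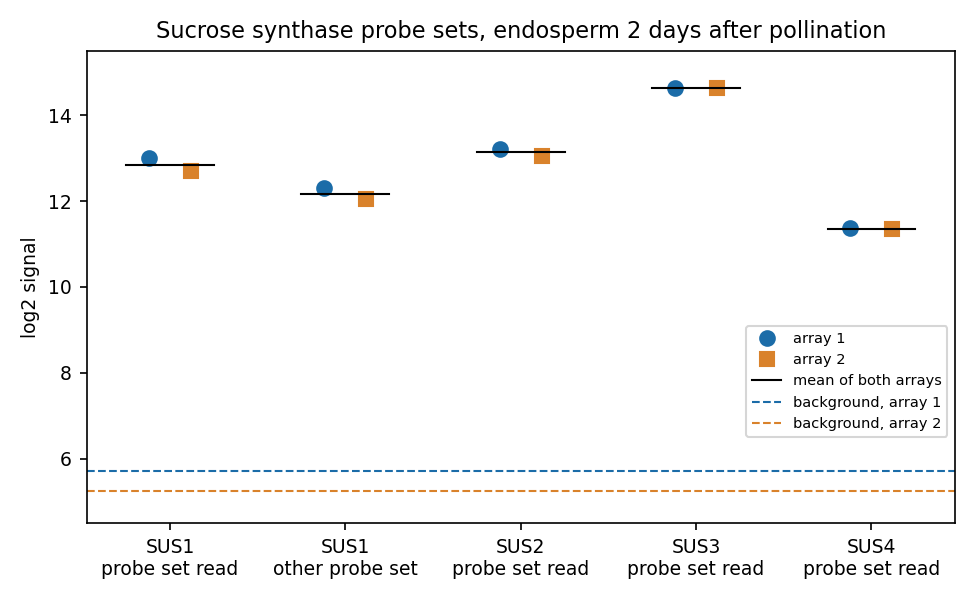
Log2 signal of the 5 sucrose synthase probe sets on array 1 (circles) and array 2 (squares), with black lines at the mean of both arrays and dashed lines at each array's background. All points lie far above background, from the SUS4 probe set at a mean of 11.35 to that of SUS3 at 14.64.

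The probe sets read fell in the order SUS3, SUS2, SUS1, SUS4 on each array. The order is one of probe set signals and not of transcript amounts, since probe affinity differs between probe sets. SUS3 stood above SUS2 by a log2 gap of 1.42 on array 1 and 1.58 on array 2, far more than the SD of either gene. SUS1 stood above SUS4 by 1.63 on array 1 and 1.35 on array 2, again beyond the spread between the arrays. SUS2 and SUS1 were neighbours that the arrays did not separate well. Their log2 gap was 0.23 on array 1 and 0.36 on array 2, their ranges of mean ± SD overlapped, and the lower SUS2 value exceeded the higher SUS1 value by 0.06.

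**Figure D2:**
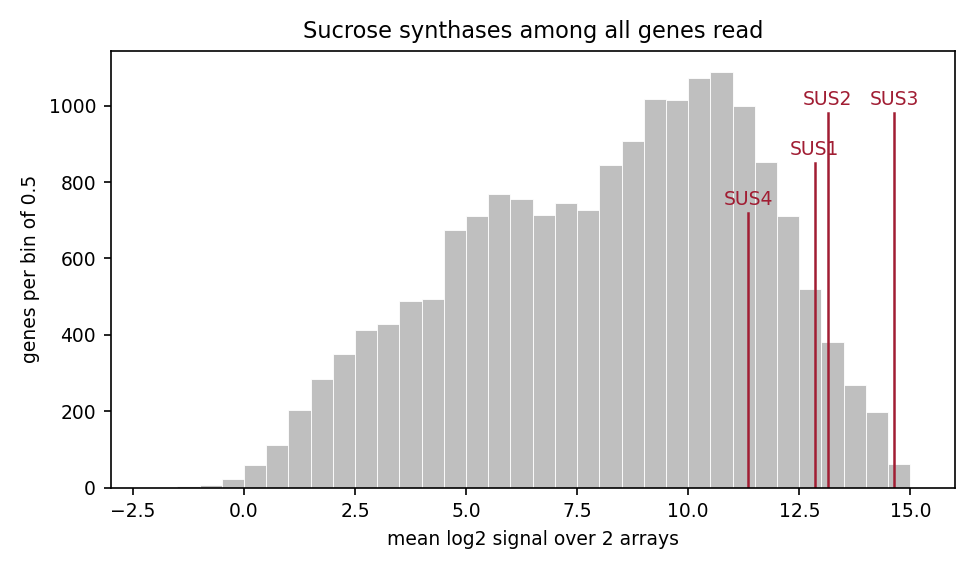
Number of genes per bin of 0.5 in mean log2 signal over both arrays, for 17905 genes, with red lines at the 4 sucrose synthase genes (line height has no meaning). SUS1, SUS2 and SUS3 lie in the upper tail of the distribution, and SUS4 lies on its upper shoulder at 11.35.

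All 4 members were higher on array 1, as were 52.6% of the 13263 genes above background on both arrays. The log2 difference, array 1 minus array 2, was 0.31 for SUS1, 0.17 for SUS2, 0.01 for SUS3 and 0.02 for SUS4. None of the 4 differed by over 2-fold between the arrays, as did 0.844% of genes above background. The median absolute difference was 0.14 over those genes and 0.09 over the 1791 brightest, so SUS3 and SUS4 varied less than most genes and SUS1 and SUS2 more. A larger absolute difference than that of SUS1 was seen in 21.4% of genes above background and in 5.47% of the brightest. For SUS2 these shares were 43.5% and 23.6%.

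Bright genes as a whole leaned the other way, with a median difference of -0.05 among the brightest 10% and 35.1% of them higher on array 1. Among the 500 genes nearest to SUS1 in mean signal, the 5th to 95th percentile of the difference ran from -0.32 to 0.22, and SUS1 at 0.31 lay above it. Its other probe set, at 0.25, also lay above the range of its own 500 neighbours, which ended at 0.21. SUS2, at 0.17, lay inside a range that ended at 0.19. With 20 bins of genes by signal in place of the nearest genes, SUS2 lay outside as well. These ranges describe the 2 arrays and are no test.

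**Figure D3:**
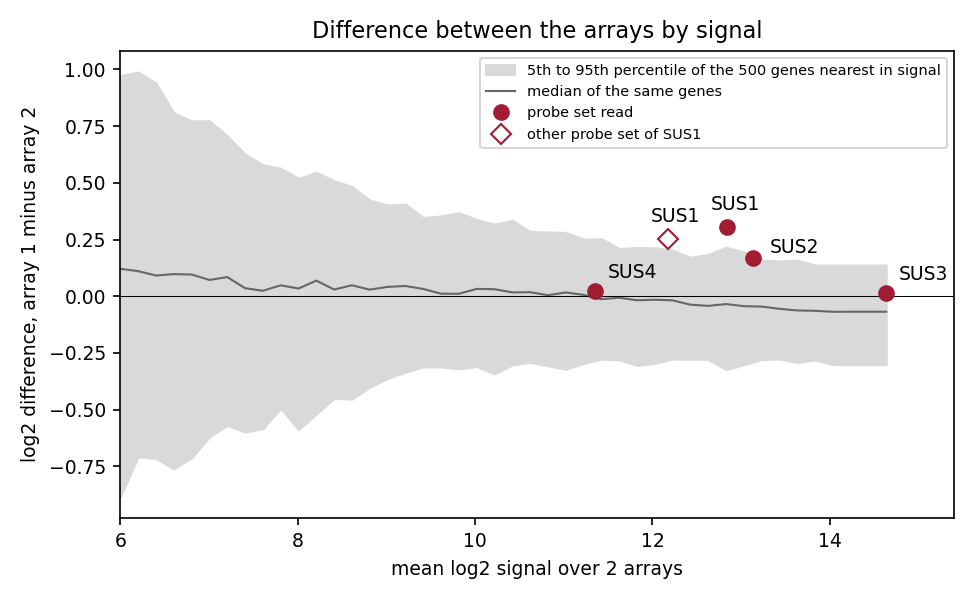
Log2 difference, array 1 minus array 2, against mean log2 signal for the 5 sucrose synthase probe sets (red), with the 5th to 95th percentile (grey band) and the median (grey line) of the 500 genes nearest in signal. Both SUS1 probe sets, at 0.31 and 0.25, lie above the band, and SUS2, SUS3 and SUS4 lie inside it.

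The other sucrose synthase genes read were below background on both arrays. SUS5 (LOC4335447) had signals of 29.4 on array 1 and 11.5 on array 2. SUS6 (LOC4331252) had signals of 1.3 on array 1 and 14.6 on array 2 in the probe set read, and its other probe set was below background too. All of these values lay under background, so they have no order and no fold is given against SUS1 to SUS4. SUS7 had no single-gene probe set and was not analysed here. A probe set below background does not show that a transcript is missing.

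Other genes that take up, split, use or remake sucrose were read through 42 genes in 8 lists matched by symbol. The 42 include SUS5 and SUS6 above and 4 genes of ethanol fermentation, given at the end. Matching by symbol can bring in genes of another function, as may hold for 2 genes named SPP below. Of the 42 genes, 35 were above background on both arrays and 7 on neither, so that 83.3% passed, beside the 74.1% of all genes. The median log2 signal of the 42 was 10.11. Of 7 invertase genes, 4 (57.1%, against 74.1% of all genes) were above background, among them both neutral invertases (NIN) and 2 of 5 cell wall invertases (CIN). The brightest was NIN3, with signals of 1260.6 and 1343.3 on arrays 1 and 2. The cell wall invertase CIN2, also called GIF1 and needed for grain filling, had signals of 211.8 and 254.5. The dimmest was CIN1, below background with signals of 2.9 and 2.2. The 7 genes were all neutral or cell wall invertases, and no other kind of invertase was read. None of the 7 was among the brightest 10% of genes. Of the sucrose synthases read, SUS1, SUS2 and SUS3 were, and SUS4, SUS5 and SUS6 were not. SUS1 was so only in the probe set read. Levels of different probe sets are not comparable as transcript amounts.

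Genes that use the products of the sucrose synthase reaction were mostly detected. All 8 hexose kinase genes read, which phosphorylate fructose or glucose, were above background, as were 74.1% of all genes read. The brightest was the hexokinase gene LOC4326547, listed as HXK2 and HXK6, at a log2 signal of 12.41 ± 0.06 (SD, n = 2), through an _s_at probe set that may match several genes. The fructokinase gene FKI stood at 11.13 ± 0.11 and the hexokinase gene HXK4 (LOC4342654), the dimmest, at 5.76 ± 0.28. HXK4 was close to background, with signals of 61.9 on array 1 and 47.3 on array 2. Of the genes that take UDP-glucose further, all 3 UDP-glucose dehydrogenases (UGD) and all 4 UDP-glucose epimerases (UGE) read were above background. Beside the 74.1% of all genes, lists this small that pass in full say little. In the probe sets read they ran from UGD5 at 12.30 ± 0.03 to UGE-1 at 7.25 ± 0.76. The brightest other probe set of UGD5 stood higher, at 12.80. UGE-1 was the only gene of this list over 2-fold apart, with signals of 104.7 on array 1 and 221.5 on array 2. The single ADP-glucose pyrophosphorylase gene read, the small subunit AGPS2, which makes the precursor of starch, stood at 14.18 ± 0.10. UDP-glucose pyrophosphorylase, which turns UDP-glucose into glucose 1-phosphate, was not analysed here.

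Sucrose can also be remade from UDP-glucose and fructose 6-phosphate by sucrose phosphate synthase (SPS) and sucrose phosphatase (SPP). All 5 SPS genes and all 4 genes listed under an SPP name were above background, beside 74.1% of all genes. Near the top stood SPS1 at 12.58 ± 0.05 (SD, n = 2) and LOC4328088, a gene listed as SPP1, at 12.58 ± 0.08. That name is shared with LOC4325448, at 7.59 ± 0.00. The name SPP2 is shared by LOC4338901, at 12.08 ± 0.19, and LOC4328274, at 10.28 ± 0.12. LOC4328088 and LOC4338901 also carry the synonym IMP. The 4 genes were matched by name alone, so these 2 may not code for sucrose phosphatase. The dimmest was SPS2F at 5.59 ± 0.24. Its signals of 54.3 on array 1 and 42.8 on array 2 were barely above the backgrounds of 52.7 and 37.9. All 4 sucrose transporter genes, which carry sucrose across membranes, were above background, again beside 74.1% of all genes. They ran from SUT1 at 12.77 ± 0.08 to SUT4 at 9.71 ± 0.08.

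**Figure D4:**
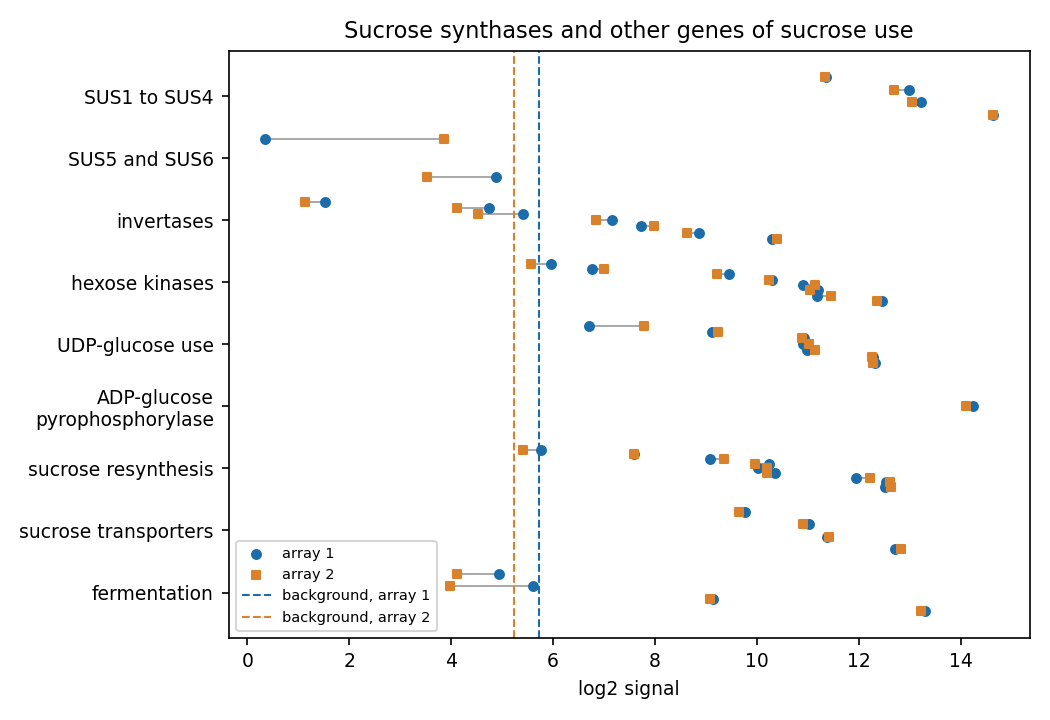
Log2 signal on array 1 (circles) and array 2 (squares) of SUS1 to SUS4 and of the 42 other genes matched by symbol to lists of sucrose use. Genes are shown by list, with a grey line joining the arrays of each gene and dashed lines at background. SUS5, SUS6, 3 invertases and 2 fermentation genes lie below background on both arrays, and all other genes shown lie above it.

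The tissue label was set against marker genes. All 3 endosperm markers read, NF-YB1, SWEET11 and the granule-bound starch synthase gene Wx, were above background, and the other endosperm markers chosen were not analysed here. As 74.1% of all genes read were above background, passing it says little on the tissue. Of 5 markers of seed coat, nucellus and embryo, MADS29 and MADS21 (40.0%) were above background on both arrays. MADS3 and MADS13 were so on array 2 alone, and OSH1 on neither. The summed signal of these 5 was 526.6 on array 1 and 558.8 on array 2. Of 9 photosynthesis genes, 6 (66.7%, against 74.1% of all genes) were above background on both arrays, PSAG and PSAH on array 1 alone, and RBCS1 on neither. Their summed signal was 3598.5 on array 1 and 3756.0 on array 2, most of it from the chlorophyll-binding protein gene CAB2R at 2746.8 and 2999.5. SUS1 and SUS2 were higher on array 1, as were 6 of the 9 photosynthesis genes, with a median log2 difference of 0.23. Of these 6, PSAG and PSAH were below background on array 2 and RBCS1 on both arrays, so their direction says little. The photosynthesis genes above background on both arrays were split. PSB28, RCABP69 and RBCS were higher on array 1, and CAB2R, RCABP89 and OEE3 on array 2. Genes of like signal, near a log2 of 6.80, had a median difference of 0.10. Of the 5 seed coat, nucellus and embryo markers, 2 were higher on array 1, with a median of -0.16. Those above background on both arrays were split too, MADS21 higher on array 1 and MADS29 on array 2. Both sums were higher on array 2 through their brightest gene. Without CAB2R the photosynthesis sum was 851.7 on array 1 and 756.6 on array 2, and without MADS29 the other sum was 222.0 on array 1 and 219.6 on array 2. The part of other tissues in the sucrose synthase signals was not tested, and fewer cells of a type and less RNA per cell cannot be told apart in such samples.

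Scaling and labelling bear on all of these values. With 2% of values trimmed at either end, both arrays averaged 500.1, so each had been scaled by itself. Signal of the 3' over the 5' probe set was 21.9 on array 1 and 24.5 on array 2 for the rice control actin. For GAPDH it was 2.60 on array 1 and 3.48 on array 2, and cyclophilin had 3.51 on array 1 and 2.99 on array 2, so it was higher on array 2 for actin and GAPDH and higher on array 1 for cyclophilin. That of an added bacterial control transcript, dap, was 6.82 and 6.99. The part of these ratios in the sucrose synthase signals was not tested. Where the sucrose synthase probe sets lie along their transcripts was not analysed here.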

How the data were processed

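Total RNA of both samples was labelled with a 3' in vitro transcription kit and hybridized to Affymetrix rice arrays, per the labels' protocols. The authors deposited 1 linear intensity for each probe set of each array. The submitters' processing notes name MAS5, with neither version nor settings. The number of arrays limits the precision.

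The log2 of each deposited value was taken with no offset. Of 57381 probe sets, 187 were controls. In the platform annotation of 2016, 22436 probe sets had 1 gene, 95 had several and 34850 had none. Names came from the gene table of assembly ASM3414082v1, which held all 17905 genes. A gene was read through the probe set with the most specific ending (_at before _a_at before _s_at before _x_at), with ties settled by the higher mean. A gene was above background if it exceeded the 95th percentile of the reporter probe sets on both arrays. The named genes are all members and the brightest and dimmest gene of each list. CIN2, FKI, SPS1, the second SPP1 gene, both SPP2 genes, ADH2, PDC3 and the marker genes were named after their values were seen. The members and lists were chosen with earlier results of these data known. With 1 group there was no test. Alternatives were another background, other rules for the probe set, quantile normalization, an offset of 16 and each array left out. Simulated data were used to check the 2-fold call, the background of array 1 and quantile normalization, and no other step. Python 3.11.15, pandas 2.3.3, NumPy 2.4.6 and matplotlib 3.10.9 were used.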

Additional observations from a re-analysis of the deposited data

How the results depend on the processing

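Across 7 planned settings, all 4 sucrose synthase genes were above background and the order SUS3, SUS2, SUS1, SUS4 was the same. The order already held on each array, so another background, the offset, quantile normalization and leaving out an array could not change it. The rule of the brightest probe set picked the same probe sets for the members. The mean over probe sets could not change it either. It moved SUS1 alone, whose probe sets at 12.84 and 12.17 both lay below SUS2 at 13.14 and above SUS4 at 11.35. The unchanged order is therefore no support for it. With the mean over probe sets, which brings in its dimmer one, SUS1 stood at 12.51, against 12.84 in the probe set read. With 1 array left out, the log2 signal ran from 12.69 to 13.00 for SUS1, 13.05 to 13.22 for SUS2, 14.63 to 14.64 for SUS3 and 11.34 to 11.36 for SUS4. After quantile normalization the difference between the arrays for SUS3 was 0.09, against 0.01. On array 2 alone 4 of the 5 seed coat, nucellus and embryo markers were above background, against 2 on both arrays. With 20 bins by signal, an alternative chosen after seeing the data as was the comparison itself, 2 members lay outside the range of genes of like signal, against 1. With each array's brightest reporter probe set as the limit, 33 of the 42 pathway genes passed, against 35. Under it 7 hexose kinase genes passed, against 8, and 8 genes of sucrose resynthesis, against 9. Of 186 values recomputed, 182 stayed within the spread between the arrays or, for counts, within 1.5 times and, for the share of genes with a lower signal, within 5 percentage points. Many of these values could not have moved. With 2 arrays, leaving 1 out always shifts a mean by less than the SD of both. The signal of a gene with a single probe set is the same under every probe set rule. No paired analysis was possible because there was 1 group.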

Other observations

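Genes of ethanol fermentation, the pathway that plant tissues use when oxygen is short and into which sugar from sucrose can flow, were uneven. Of 4 genes read, 2 were above background, beside 74.1% of all genes. The pyruvate decarboxylase gene PDC2 stood at a log2 signal of 13.27 ± 0.06 (SD, n = 2) in the probe set read, with signals of 10154.2 on array 1 and 9599.4 on array 2, and its other probe set stood at 8.65. The alcohol dehydrogenase gene ADH2 stood at 9.12 ± 0.04. PDC1, with signals of 30.8 and 17.4 on arrays 1 and 2, and PDC3, with 49.1 and 15.8, were below background on both arrays. ADH1 had no single-gene probe set and was not analysed here.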
